A study of Homo sapiens with 5 samples.

Results

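The genes described here encode the subunits of the mitochondrial machinery of oxidative phosphorylation. They were taken by symbol, as every gene of the deposited tables whose name starts with NDUFA, NDUFB, NDUFC, NDUFS or NDUFV and a number, with UQCR, with COX and a digit from 4 to 8, or with ATP5. This gave 83 of 27189 genes, of which 77 encode a subunit: 35 of complex I, 9 of complex III, 19 of complex IV (NDUFA4 and its paralogue NDUFA4L2 among them) and 14 of complex V. The other 6 are the pseudogenes ATP5EP2 and UQCRBP1, the antisense genes NDUFA6-AS1 and NDUFB2-AS1, and ATP5S and ATP5SL, which are named after a subunit but are not counted as one here.

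The study asked how cell density and the cytokines IL-6 and IL-8 change the transcriptome of cells in a 3D matrix. HT1080 cells, an established human fibrosarcoma line, were embedded in rat-tail type I collagen at 2 mg/ml for 24 h. The LD culture held 10 cells/mm3 with no added cytokine, and the HD culture held 50 cells/mm3 with no added cytokine. The IL-6 and IL-8 cultures held 10 cells/mm3 and received 1 recombinant cytokine each, and the RM culture held 10 cells/mm3 and received both, in a ratio of 5 parts IL-6 to 2 parts IL-8. All cultures were of 1 cell line, and each condition gave 1 bulk library, so no difference below has a replicate check and no p-value is given. Intervals are 95% and cover the counting of reads only, since the cDNA pool was amplified as a whole without molecular identifiers.

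In the respiratory chain, complex I takes electrons from NADH and passes them to ubiquinone, complex III passes them on to cytochrome c, and complex IV hands them to oxygen. The 3 complexes pump protons across the inner mitochondrial membrane, and complex V, the ATP synthase, uses the gradient to make ATP. Each complex has a small set of core or catalytic subunits, which carry the redox centres or the nucleotide-binding sites, and a larger set of accessory subunits. In all but complex II some subunits are encoded in the mitochondrial genome and the rest in the nucleus. The genes here are nuclear. None of the 13 mitochondrially encoded subunits was found in the tables analysed here.

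Nuclear genes of this kind are known for promoters that bind the factors NRF1, GABP (an ETS factor) and YY1. A promoter of 300 bases, from 250 before to 50 after the start, was matched in the RefSeq table (GRCh38.p14) for 62 of the 77 subunit genes. The NRF1 word GCGCATGCG was present in 9 of them (14.5%), against 2.10% of all 27305 promoters of that length. The ETS word CCGGAAG was present in 16 (25.8%, against 10.7%), and the YY1 word AAGATGGCG in 7 (11.3%, against 1.85%). At least 1 of the words was present in 27 of the 62 promoters (43.5%), against 13.7% of all promoters. Both strands were searched. The NRF1 word overlaps its own reverse complement by 8 bases, so that a run of GCGCATGCGC counts on both strands, and a match is a run of letters and not a measured binding site.

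The stretches below lie upstream of the start site, are written 5′ to 3′ along the gene and carry the matched word in capitals. They are shown because the shared words are what these promoters have in common beyond their symbols. Those with the NRF1 word belong to a core subunit of complex I, an accessory subunit of complex I, a rotor subunit, a c-ring subunit, a membrane subunit of ATP synthase, and a subunit of complex IV:
NDUFS7, chr19:1383821-1383853, plus strand: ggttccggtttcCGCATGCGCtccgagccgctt
NDUFS6, chr5:1801349-1801381, plus strand: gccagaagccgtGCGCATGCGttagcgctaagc
ATP5C1, chr10:7788143-7788175, plus strand: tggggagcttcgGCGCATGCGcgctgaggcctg
ATP5G2, chr12:53676104-53676136, minus strand: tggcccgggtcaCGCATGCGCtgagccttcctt
ATP5I, chr4:674334-674366, minus strand: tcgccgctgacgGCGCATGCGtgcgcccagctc
COX6A1, chr12:120437882-120437914, plus strand: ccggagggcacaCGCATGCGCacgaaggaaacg

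Those with the ETS word include the promoters of 3 genes with some of the highest levels of their complexes and of a core subunit that differed between the cytokine libraries:
UQCRH, chr1:46303640-46303670, plus strand: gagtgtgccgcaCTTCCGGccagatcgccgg
COX8A, chr11:63974590-63974619, plus strand: ccagctccagaaCTTCCGGccagcgcagcc
COX5B, chr2:97646013-97646043, plus strand: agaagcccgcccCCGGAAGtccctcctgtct
NDUFS3, chr11:47578960-47578990, plus strand: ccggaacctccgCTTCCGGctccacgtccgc

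ATP5J, a subunit of the peripheral stalk of ATP synthase, is shown with all 3 words, in the order NRF1, YY1 and ETS toward the start:
ATP5J NRF1, chr21:25735154-25735186, minus strand: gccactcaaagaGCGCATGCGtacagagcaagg
ATP5J YY1, chr21:25735091-25735123, minus strand: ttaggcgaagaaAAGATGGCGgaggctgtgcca
ATP5J ETS, chr21:25735066-25735096, minus strand: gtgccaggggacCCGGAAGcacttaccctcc

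The ribosomal transcript RNA5-8S5 took 76.9% to 79.6% of the reads of the 4 libraries at low density and 51.5% of those of HD. It was left out of all scaling, which left 1645539 reads in LD, 1100967 with IL-6, 1120609 with IL-8, 1434366 under RM and 449661 in HD. A count of 3 reads, the limit that a count of 0 allows, was 1.82 CPM (reads per 1000000 reads outside RNA5-8S5) in LD and 6.67 CPM in HD. HD stood apart from the other libraries. Olfactory receptor genes, which are known for expression in the nasal epithelium, took 0.364% of its reads (240 of 386 genes with reads) and 0.002% to 0.008% of the reads of the other 4 (14 to 37 genes). All of 8 mesenchymal markers had reads in every library, and together they took 0.105% of the reads of HD and 0.830% to 1.12% of the others. The 5 epithelial markers took 0.0583% of the reads of HD and 0.0955% to 0.144% of the others, mostly from the keratin genes KRT8 and KRT18, and CDH1, the epithelial cadherin gene, had 34 reads in HD and 0 to 6 in the others. The 3 leukocyte markers PTPRC, CD14 and CD3E had 46 reads in HD and 0 to 2 in the others, and the 3 endothelial markers 70 reads in HD and 3 to 6 in the others. The part of these differences in the results for HD was not tested. In bulk libraries, fewer cells and less RNA per cell cannot be told apart.

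Levels are given as TPM (transcripts per 1000000), which are corrected for transcript length and were rescaled to 1000000 without RNA5-8S5. Differences from LD are differences in log2(TPM + 1), a scale that makes those of low genes smaller, and a gene is called higher or lower at 1 log2 unit or more. Of the 77 subunit genes, 73 reached 1 TPM in at least 1 library and were compared, among 21313 genes in all, and 62 had a mean of at least 10 reads, among 9300 genes in all. The 4 that were not compared, UQCRHL, COX8C, COX6A2 and COX7A1, had no reads in any library.

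At low density the transcripts of the 77 genes took a nearly equal share of reads with and without a single cytokine. The share was 0.846% in LD (0.833% to 0.861%; 13929 reads), 0.839% with IL-6 (0.822% to 0.857%; 9240 reads) and 0.833% with IL-8 (0.817% to 0.850%; 9336 reads). It was 0.935% in RM (0.919% to 0.951%; 13410 reads), 1.10-fold that of LD (1.08 to 1.13). The cytosolic ribosomal protein genes also took a higher share in RM, 1.18-fold that of LD (1.17 to 1.19). For the mitochondrial ribosomal protein genes it was 1.10-fold (1.07 to 1.14), while the mesenchymal markers took a 1.35-fold lower share (1.32 to 1.38). In HD the share of the 77 genes was 0.178% (0.166% to 0.191%; 802 reads), 4.75-fold lower than in LD (4.42 to 5.10). The lower share in HD was shared by other genes of abundant proteins: the cytosolic ribosomal protein genes took a 4.26-fold lower share (4.16 to 4.35), the mitochondrial ribosomal protein genes a 2.51-fold lower share (2.33 to 2.70) and the mesenchymal markers a 10.7-fold lower share (9.76 to 11.7).

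**Figure D1:**
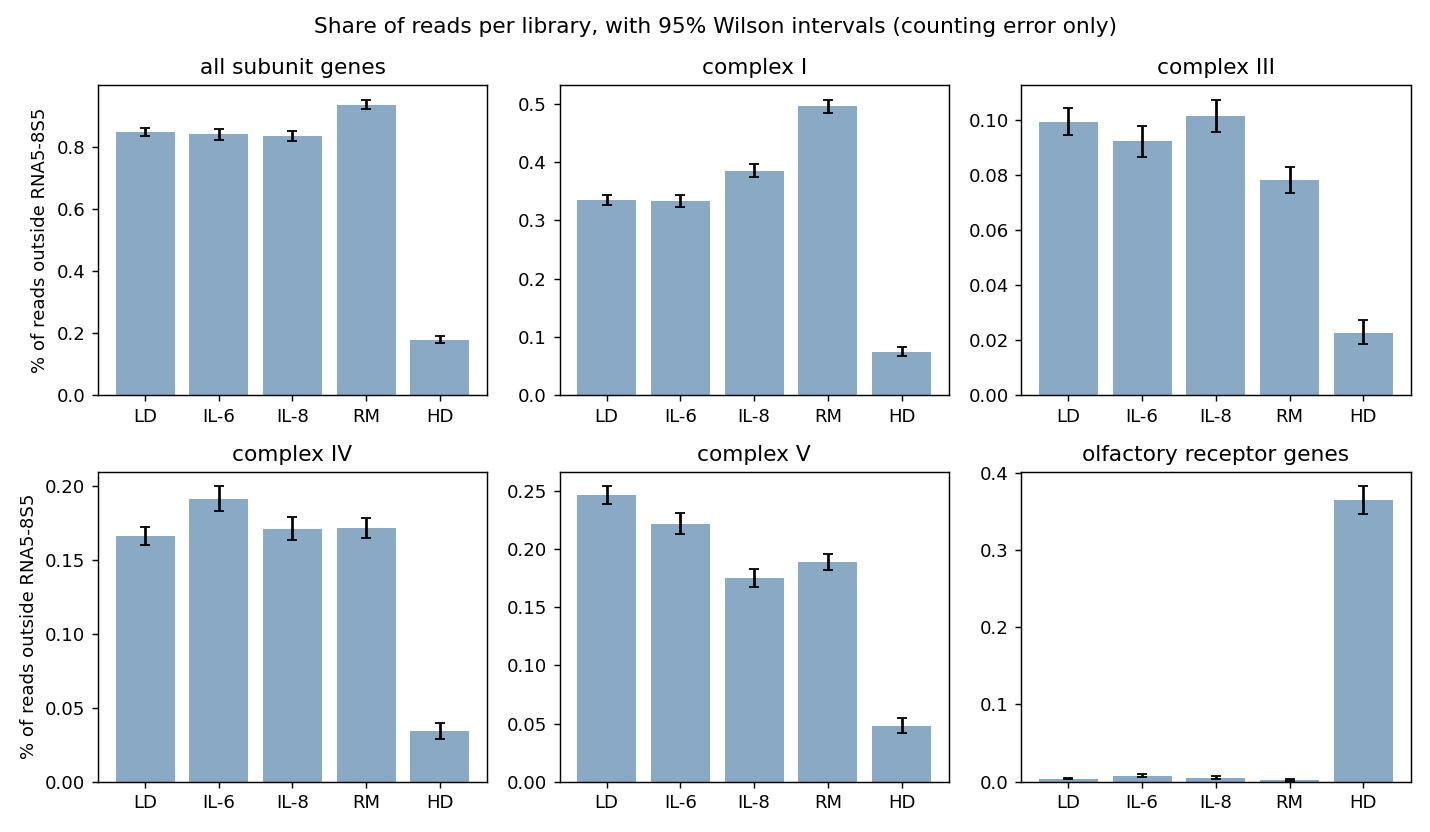
Share of the reads outside RNA5-8S5, in percent, taken by all 77 subunit genes, by the genes of each complex and by 386 olfactory receptor genes in each of the 5 libraries. Bars give the share and lines its 95% Wilson interval (counting error only). The subunit genes took 0.833% to 0.935% at low density and 0.178% in HD, while the olfactory receptor genes took 0.364% in HD.

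The near-equal totals were made up of unequal differences between the complexes. Complex I took 0.334% of reads in LD, 0.333% with IL-6, 0.386% with IL-8 and 0.496% in RM, so that its share in RM was 1.48-fold that of LD (1.43 to 1.54) and with IL-8 1.15-fold (1.11 to 1.2). Complex V took 0.246% in LD, 0.222% with IL-6, 0.175% with IL-8 and 0.189% in RM, which was 1.41-fold lower with IL-8 (1.33 to 1.49) and 1.30-fold lower in RM (1.24 to 1.37). Complex III was 1.27-fold lower in RM (1.18 to 1.37), with 0.0995% in LD and 0.0782% in RM. Complex IV was 1.15-fold higher with IL-6 (1.09 to 1.22), with 0.166% in LD and 0.191% with IL-6. In HD each complex was lower than in LD, by 4.53-fold for complex I (4.05 to 5.07), 4.43-fold for complex III (3.62 to 5.47), 4.88-fold for complex IV (4.15 to 5.79) and 5.13-fold for complex V (4.47 to 5.91), and these intervals overlap one another.

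The higher share of complex I in RM came mostly from a few genes. NDUFV1, which binds NADH and flavin, had 632 reads in LD and 1153 in RM, the accessory subunit NDUFA2 had 289 and 903, and the iron-sulphur subunit NDUFS8 had 267 and 661. Together these 3, picked after their values were seen as the largest gains in CPM, took a 2.62-fold higher share in RM (2.45 to 2.81). The other 32 genes of complex I together took a 1.17-fold higher share (1.12 to 1.22). Of all 35, 18 had more and 17 fewer CPM in RM than in LD.

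**Figure D2:**
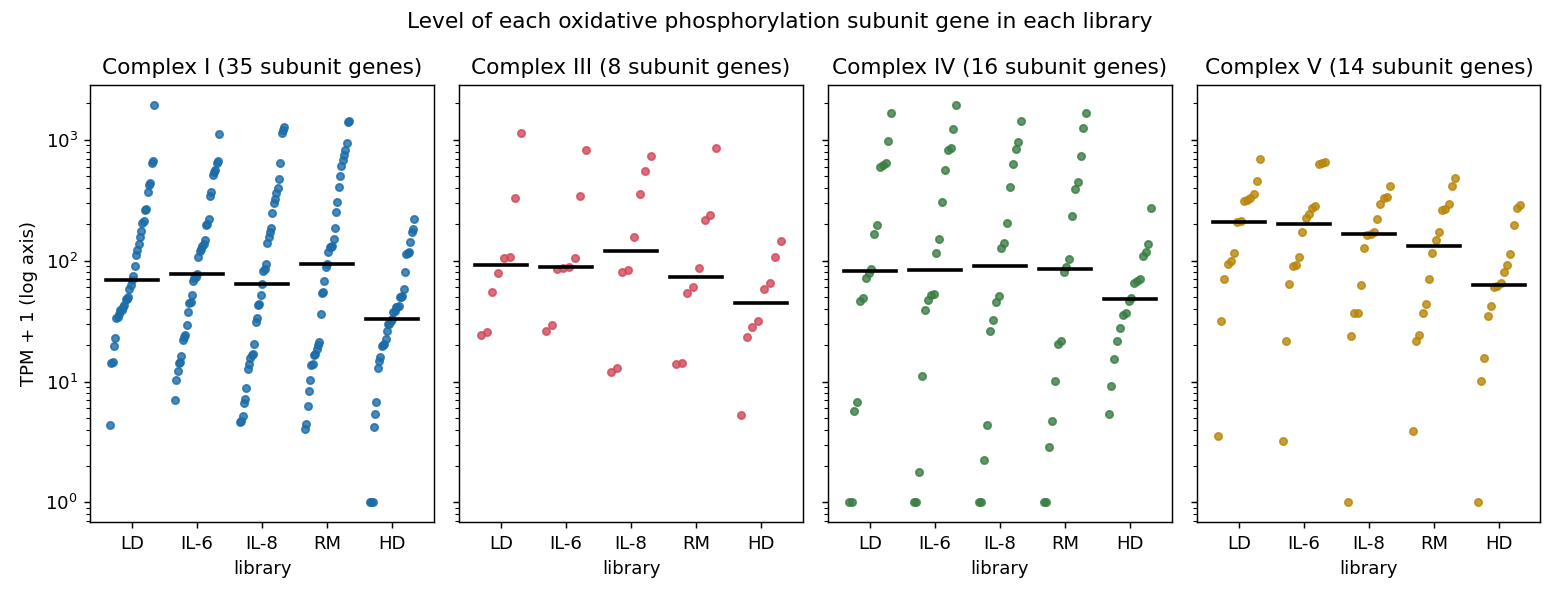
TPM + 1 of each of the 73 subunit genes compared, on a log axis, in the 5 libraries, with a panel for each complex. Points are genes in rising order within a library, black lines are medians, and a point at 1 is a gene without reads. The highest points in LD are NDUFB9 (1948 TPM) in complex I and COX8A (1676 TPM) in complex IV, and the medians were lowest in HD in all 4 panels.

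Levels spanned a wide range among the subunits. Among the accessory subunits of complex I, NDUFB9 had the highest mean level, with 1948 TPM in LD, 1114 with IL-6, 1207 with IL-8, 1392 under RM and 80.1 in HD. NDUFA2 came next, with 442 TPM in LD, 565 with IL-6, 1139 with IL-8, 1437 under RM and 56.9 in HD. It was thus high in the libraries with IL-8, alone or combined, and lowest in HD. NDUFA11, a membrane-arm subunit, had 665 TPM in LD, 645 with IL-6, 1286 with IL-8, 604 under RM and 172 in HD, and was high with IL-8 alone.

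Nuclear core subunits of complex I went different ways in RM. NDUFV1 had 425 TPM in LD, 546 with IL-6, 362 with IL-8, 819.9 under RM and 112 in HD. NDUFS8 had 366, 370.5, 399, 944 and 115 TPM in the same order of libraries, and NDUFS7, next to the ubiquinone site, had 214, 196, 155, 407 and 31.7 TPM. All 3 had their highest level in RM. NDUFS3 and NDUFV2 passed the threshold as lower in RM, and NDUFS1, with a difference of -0.85 log2 units from LD, did not. NDUFS3, a subunit of the peripheral arm, had 261 TPM in LD, 118 with IL-6, 471 with IL-8, 53.8 under RM and 49.3 in HD. NDUFS1, the largest iron-sulphur subunit, had 32.5, 23.1, 7.76, 17.5 and 3.17 TPM, and NDUFV2, the partner of NDUFV1, 38.4, 20.9, 14.7, 7.27 and 5.76 TPM. The level of the flavin subunit NDUFV1 was thus above that of its partner in every library, although the complex holds a single copy of each.

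In complex III the hinge protein gene UQCRH led, with 1130.0 TPM in LD, 821 with IL-6, 736 with IL-8, 856 under RM and 146 in HD. Its intronless copy UQCRHL had no reads, and reads of the pair could not be told apart where the copies are alike. The core protein gene UQCRC1 had 332 TPM in LD, 345 with IL-6, 358 with IL-8, 238 under RM and 56.8 in HD. UQCRFS1, which encodes the Rieske iron-sulphur protein, was low throughout, with 23.2, 28.2, 11.9, 13.0 and 4.26 TPM in that order. The small subunit gene UQCR10 had 54.0 TPM in LD, 88.5 with IL-6, 552 with IL-8, 214 under RM and 106 in HD. Its reads numbered 28, 30, 79, 43 and 7, so the step from LD to IL-8 was 3.33 log2 units in TPM and 2.05 log2 units in CPM (1.41 to 2.73), and the scales with and without the length correction gave different sizes for this step.

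In complex IV the gene of the small subunit COX8A had 1676 TPM in LD, 1931 with IL-6, 1428 with IL-8, 1660.4 under RM and 117 in HD. COX6B1, at the contact of the dimer, had 978, 1238, 839, 1262 and 137 TPM, and the zinc-binding subunit COX5B 612, 858, 954, 739 and 34.4 TPM. The 3 genes varied by less than 1 log2 unit among the libraries at low density and stood lowest in HD.

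In complex V the catalytic beta subunit gene ATP5B had 687 TPM in LD, 653 with IL-6, 329 with IL-8, 481 under RM and 113 in HD. The alpha subunit gene ATP5A1 had 319 TPM in LD, 171 with IL-6, 170.4 with IL-8, 115 under RM and 91.7 in HD. Both were below LD in each of the other libraries, ATP5B by 1.06 log2 units with IL-8 and ATP5A1 by 1.47 in RM. ATP5I, the e subunit in the membrane, had 358, 632, 411, 259.9 and 288 TPM, and HD lay within the range of the other libraries for this gene.

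With IL-6 alone the subunit genes differed little from LD. NDUFA10 and NDUFS3 were lower, NDUFA9 and NDUFB7 were higher, and the 73 genes had a median difference of -0.02 log2 units, against 0.00 for all genes. Of the 73, 3 were higher and 5 lower, against 12.2% and 8.42% of all genes, and of the 62 with a mean of at least 10 reads, 3 were higher and 3 lower, against 11.3% and 8.42%. NDUFA9, an accessory subunit at the joint of the peripheral and membrane arms, had 89 reads in LD and 151 with IL-6, a 2.54-fold higher share (1.94 to 3.33), and NDUFB7 had 123 and 207 reads, a 2.52-fold higher share (2.00 to 3.17). NDUFA10, an accessory subunit of the membrane arm, had 106 reads in LD and 29 with IL-6, a 2.45-fold lower share (1.61 to 3.83), and NDUFS3 had 234 and 78 reads, a 2.01-fold lower share (1.55 to 2.63).

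With IL-8 alone, NDUFA10 and NDUFB5 had the largest decreases and UQCR10 and COX7A2L the largest increases, among subunit genes with at least 20 reads in this library and LD together. The 73 genes had a median difference of -0.40 log2 units, which was 0.03 with median-ratio size factors, against 0.00 for all genes and -0.31 for all genes with a mean of at least 10 reads. Of the 73, 5 were higher and 15 lower, against 9.40% and 18.0% of all genes. With median-ratio size factors 11 were higher and 8 lower, against 13.3% and 14.4% of all genes. With TMM factors, a trimmed mean of the ratios between libraries, 7 were higher and 9 lower, against 14.8% and 16.0%. Of the 62 with a mean of at least 10 reads, 5 were higher and 10 lower, against 11.2% and 22.7%. NDUFA10 had 12 reads with IL-8, a 6.02-fold lower share than in LD (3.30 to 12), and NDUFB5, an accessory subunit of the membrane arm, had 85 reads in LD and 14 with IL-8, a 4.13-fold lower share (2.33 to 7.88). COX7A2L, which takes part in supercomplexes of complexes III and IV, had 122 and 253 reads, a 3.05-fold higher share (2.44 to 3.81).

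With both cytokines, most of the genes that were higher and most of those that were lower belonged to complex I. This complex also supplied 35 of the 73 genes compared. The lowest difference was that of COX6C of complex IV. The 73 genes had a median difference of -0.41 log2 units in RM, which was 0.29 with median-ratio size factors and 0.12 with TMM factors, against 0.00 for all genes and -0.51 for all genes with a mean of at least 10 reads. Of the 73, 9 were higher and 17 lower, against 7.11% and 22.5% of all genes. With median-ratio size factors 21 were higher and 8 lower, against 14.5% and 15.3% of all genes. With TMM factors 15 were higher and 8 lower, against 12.7% and 17.4%. Of the 62 with a mean of at least 10 reads, 9 were higher and 14 lower, against 9.47% and 31.3%. The 9 that were higher were 8 genes of complex I and UQCR10. The 17 that were lower were 10 genes of complex I, 3 of complex IV and 4 of complex V. The 10 of 17 thus lay nearer the part of complex I among the genes compared than the 8 of 9. NDUFB8, an accessory subunit of the membrane arm, had 122 TPM in LD, 106 with IL-6, 248 with IL-8, 499 under RM and 40.4 in HD, with 74 reads in LD and 292 in RM, a 4.53-fold higher share (3.50 to 5.92). NDUFA9 had 68.3 TPM in LD, 201 with IL-6, 80.4 with IL-8, 307 under RM and 29.2 in HD, a 4.28-fold higher share of reads in RM (3.38 to 5.47). COX6C, an accessory subunit of complex IV, had 45.0 TPM in LD, 37.8 with IL-6, 31.3 with IL-8, 3.68 under RM and 45.8 in HD, on 39, 24, 20, 3 and 14 reads, an 11.3-fold lower share in RM (3.60 to 57.3). NDUFS3 had a 3.40-fold lower share of reads in RM (2.55 to 4.59).

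The study asked which genes set the combined treatment apart from LD and from each cytokine alone. RM was at least 1 log2 unit above LD and above both single-cytokine libraries for 3 of the 73 subunit genes (4.11%), NDUFB8, NDUFS8 and NDUFA7, against 3.56% of all genes. It was at least 1 log2 unit below each of them for 5 (6.85%), NDUFS3, COX5A, NDUFA3, COX6C and NDUFB11, against 7.16% of all genes. These shares lay near those of all genes with this scaling, while 10 of the subunit genes were above and 1 below with median-ratio size factors and also with TMM factors. The shares of all genes with those factors were not calculated. NDUFA7, COX5A, NDUFA3 and NDUFB11 are named here after their values were seen. COX5A had 84.7 TPM in LD, 51.7 with IL-6, 49.9 with IL-8 and 19.6 in RM, while NDUFA3 rested on 10, 9, 8 and 4 reads.

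**Figure D3:**
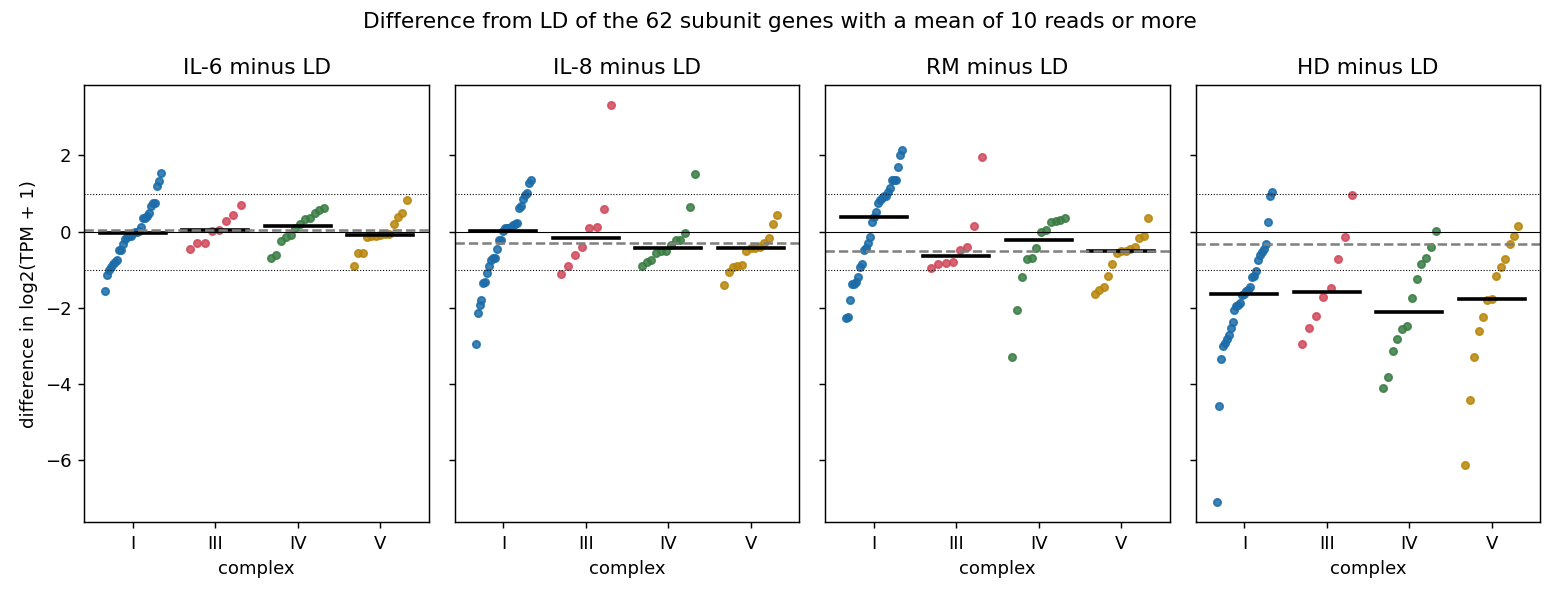
Difference of each library from LD in log2(TPM + 1) for the 62 subunit genes with a mean of at least 10 reads, by complex. Points are genes in rising order, black lines are medians of a complex, the dashed line is the median of all 9300 genes with a mean of at least 10 reads (0.04, -0.31, -0.51 and -0.32 from left to right), and dotted lines mark 1 log2 unit. In HD 42 of the 62 points lie at or below -1, and the lowest point of complex I and of complex V, NDUFA12 and ATP5H, had no reads in HD, so that their position depends on the pseudocount.

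At high density most of the subunit genes were lower than at low density, with NDUFA12 and ATP5H without reads in HD, and with COX6B2 and NDUFB2 the largest increases among subunit genes with at least 20 reads in the LD and HD libraries together. The 73 genes had a median difference of -1.54 log2 units, against 1.85 for all genes, and it was -1.44 with the 6 genes that had no reads in LD or in HD set at the limit of 3 reads. Of the 73, 7 were higher and 45 lower, against 60.1% and 20.3% of all genes. Of the 62 with a mean of at least 10 reads, 1 was higher and 42 were lower, against 33.1% and 38.8%, with a median of -1.69 against -0.32. The median of all genes moved with the scaling, from 1.85 to 1.32 with TMM factors and to 0.10 with quantile normalization, while that of the 73 subunit genes stayed below 0 under each scaling tried, from -1.29 to -2.45. In this library the 386 olfactory receptor genes, with 1638 reads, took a larger share of reads than the 77 subunit genes, with 802.

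For 45 of the 62 genes (72.6%), TPM in HD was below that of each of the 4 other libraries, against 37.7% of all genes with a mean of at least 10 reads. For 3 it was above each of them (4.84%), against 36.2%. The 3, named after their values were seen, were ATP5F1, NDUFV3 and COX6C, and none of them was above LD by 1 log2 unit. In CPM, which carries no length correction, 53 of the 62 were lowest in HD (85.5%), against 45.0% of all genes, and 2, NDUFB2 and COX6C, were highest (3.23%, against 31.3%). The single counts in HD were small, with a median width of the counting interval of 2.00 log2 units against 0.84 in RM.

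The core subunit genes were all below their level in LD. Of the 15 core subunits of complexes I, III and V, 14 were lower by at least 1 log2 unit. This compares with 20.3% of all genes and 38.8% of those with a mean of at least 10 reads, which each of the 15 reached. Their median difference was -2.38 log2 units, against -0.32 for all genes with that mean. In RM the median of the 15 was -0.79 log2 units, with 1 higher and 4 lower. That was against 7.11% and 22.5% of all genes and 9.47% and 31.3% of those with that mean, so that the count lower in RM lay near these shares. NDUFB9, with 1249 reads in LD and 11 in HD, took a 31-fold lower share (17.3 to 62.3). COX8A, with 707 and 10 reads, took a 19.3-fold lower share (10.4 to 40.5), and ATP5B, with 1238 and 41, an 8.25-fold lower share (6.05 to 11.6). UQCRH, with 505 and 13 reads, took a 10.6-fold lower share (6.15 to 20.1).

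NDUFA12, an accessory subunit of complex I, had 68 reads in LD, 46 with IL-6, 23 with IL-8, 122 under RM and 0 in HD, and was at least 6.19-fold lower in HD when the 0 is set at 3 reads. ATP5H, the d subunit of the peripheral stalk, had 38, 23, 14, 12 and 0 reads, and was at least 3.46-fold lower. COX6B2 had 9, 1, 5, 4 and 28 reads, an 11.4-fold higher share in HD than in LD (5.22 to 27.4). NDUFB2 had 24, 37, 41, 49 and 22 reads, a 3.35-fold higher share in HD (1.79 to 6.25), and its levels were 56.8, 132, 138, 117 and 118 TPM, so that LD was the low library. NDUFB2-AS1, an antisense gene at the same locus, had 12, 3, 3, 5 and 13 reads, and as no source used here says that strand was kept, reads of the pair cannot be told apart.

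**Figure D4:**
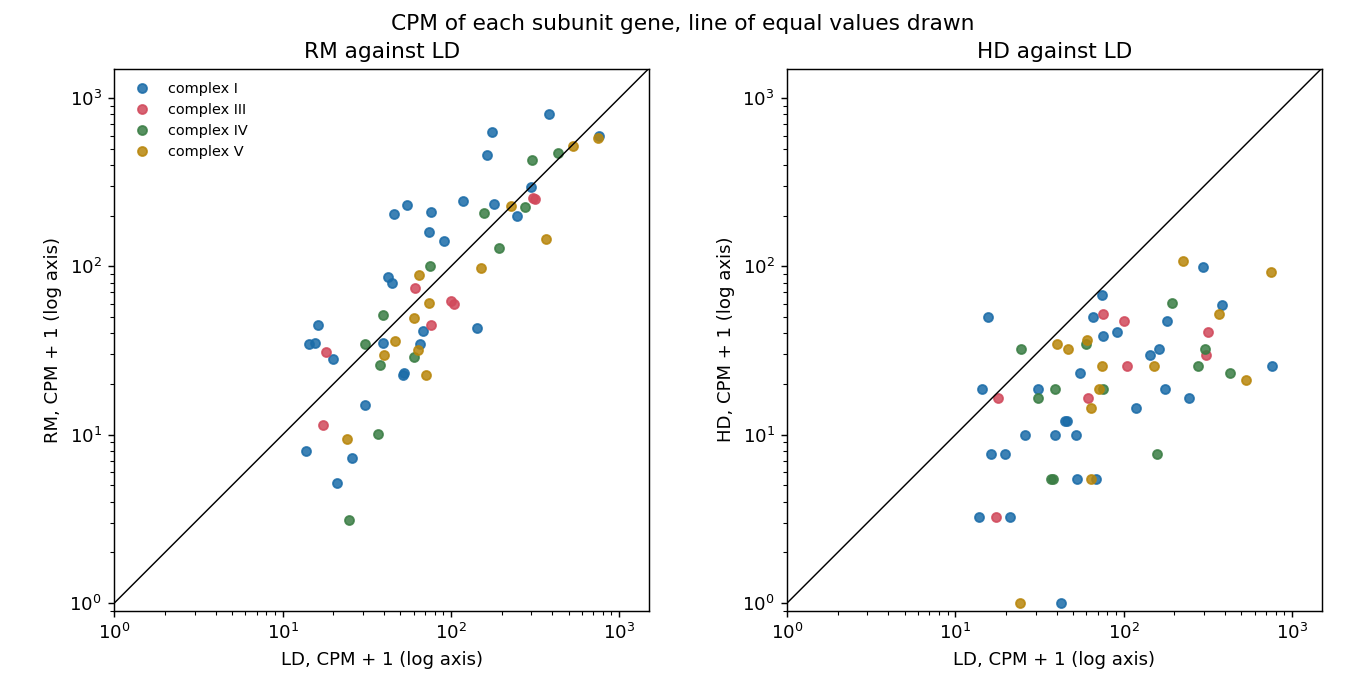
CPM + 1 of the 62 subunit genes with a mean of at least 10 reads, in LD on the horizontal axis against RM (left) and HD (right) on the vertical axis, both on log axes, with the line of equal values. Points are genes, coloured by complex. In RM 46 of the 62 counting intervals leave out equal shares, 20 above and 26 below the line. That is 74.2%, against 59.7% for all 9300 genes with that mean. In HD 48 do, 1 above and 47 below. That is 77.4%, near the 74.4% for all genes with that mean.

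Several subunits of complex IV have paralogues that are known as isoforms of particular tissues, and at low density these were silent or nearly so. COX4I1, COX6A1, COX7B and COX8A had all reads of their families in each library at low density, with COX4I2, COX6A2, COX7B2 and COX8C at 0. For COX4I2 in LD, 0 of 452 reads of the family allows a share of up to 0.843% (Wilson). COX6B1 held 98.2% to 99.8% of the reads of its family at low density, and COX6B2, known from testis, the rest. In HD the order turned in reads, which are not corrected for length: COX6B2 held 28 of 42 (66.7%; 51.6% to 79.0%). In levels COX6B1 still led in HD, with 137 TPM against 70.1 TPM for COX6B2. ATP5L2, a paralogue of the g subunit gene ATP5L, had 2, 2, 0, 2 and 12 reads, and held 52.2% of the reads of the pair in HD (33.0% to 70.8%) against 1.63% in LD. COX4I2 had 1 read and COX7B2 had 2 reads in HD, and those 2 reads gave a level of 64.7 TPM. This was the library in which the olfactory receptor genes and the leukocyte and endothelial markers also had reads, and the part of that in these isoform shares was not tested.

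The 3 genes of the c-ring, ATP5G1, ATP5G2 and ATP5G3, encode precursors of 1 and the same mature protein. Of their summed reads ATP5G3 held 64.8% in LD (62.2% to 67.3%), 47.3% with IL-6 (43.9% to 50.6%), 68.3% with IL-8, 62.3% under RM and 14.3% in HD (7.70% to 25%). ATP5G2 held 27.5% in LD, 41.5% with IL-6, 24.2% with IL-8, 27.2% under RM and 76.2% in HD (64.4% to 85%). ATP5G1 held 7.57% to 11.3% in the 5 libraries. IL-6 and HD thus stood apart from LD by more than the counting error, and both had a larger part from ATP5G2. In levels the order differed, as ATP5G2 led in every library, with 454 TPM in LD, 641 with IL-6, 334 with IL-8, 416 under RM and 274 in HD, against 332, 226, 293, 296 and 14.6 TPM for ATP5G3.

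In the pair of COX7A2 and COX7A2L, COX7A2L held 71.3% of reads in LD (64.2% to 77.6%), 52.0% with IL-6 (42.4% to 61.4%), 92.7% with IL-8 (89.0% to 95.2%), 74.9% under RM and 53.3% in HD (8 of 15 reads), while the muscle gene COX7A1 had none. Of the summed TPM of the pair it held 47.8% in LD, 28.7% with IL-6, 82.2% with IL-8, 52.1% under RM and 30.0% in HD. In levels COX7A2 thus led in LD, IL-6 and HD. NDUFA4L2, the paralogue of NDUFA4, held 6.73% of the reads of the pair in LD, 10.4% with IL-6, 2.56% with IL-8, 20% in RM (11.2% to 33.0%) and 6.25% in HD. The interval of RM overlaps that of LD (3.30% to 13.2%) in part.

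The features that encode no subunit had few reads, but for ATP5SL. It had 173, 154, 96, 172 and 16 reads, or 109.9, 159, 92.5, 133 and 58.1 TPM, and so was lowest in HD like most of the subunit genes. ATP5S had 23 reads in LD, 6 with IL-6, 0 with IL-8, 2 under RM and 10 in HD. NDUFA6-AS1 had 1 read with IL-8, 5 in HD and 0 elsewhere, ATP5EP2 had 1 read with IL-6 and 0 elsewhere, and UQCRBP1 had none.

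Across the 62 genes with a mean of at least 10 reads, the levels of LD and IL-6 were the closest of all pairs of libraries (Pearson 0.942 in log2(TPM + 1), SD of the differences 0.60), while LD and IL-8 gave 0.886 (SD 0.96), LD and RM 0.849 (SD 1.13) and LD and HD 0.569 (SD 1.56). IL-6 and RM gave 0.902 (SD 0.92), and RM and HD were farthest apart (0.563, SD 1.83). Over all 9300 genes the 4 pairs with LD gave 0.919, 0.873, 0.855 and 0.150. These are across genes that share their libraries and are given as a description. The levels of LD and HD were thus more closely correlated over the subunit genes than over all genes, a difference that was not tested. The filter on reads used the mean of all 5 libraries, HD among them.

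Differences of the subunit genes from LD rose with the GC content of their transcripts in IL-6, IL-8 and RM, most in IL-8 and RM. GC content, as the median over the protein-coding transcripts of a gene in GENCODE 29, was found for all 62 genes and ranged from 38.7% to 68.7%. In RM the 31 genes above 50.55% GC had a median difference from LD of -0.01 log2 units (5 higher, 3 lower), and the 31 at or below it -0.79 (4 higher, 11 lower), against 12.6% higher and 28.6% lower of all genes above it and 5.05% and 36.5% of those at or below it. In IL-8 the values were 0.01 (2 higher, 1 lower) and -0.79 (3 higher, 9 lower), against 13.4% and 20.1% of all genes above it and 7.08% and 26.6% of those at or below it. In IL-6 they were 0.05 and -0.12. All genes with a mean of at least 10 reads and a matched transcript, 8364 of 9300, had medians of -0.35 above and -0.72 at or below that GC content in RM, -0.14 and -0.52 with IL-8, and -0.86 and -0.20 in HD. Pearson's r between GC content and the difference was 0.315 under RM, 0.293 with IL-8 and 0.206 with IL-6 over the 62 genes, and 0.142, 0.147 and 0.048 over all genes. In HD it was -0.144 over all genes and -0.03 over the 62, whose medians were -1.77 above and -1.20 at or below 50.55% GC. The genes of complex I had a median GC content of 51.4%, those of complexes III, IV and V 48.6%, 48.5% and 47.8%. Of the core subunits of complex I, NDUFV1, NDUFS7 and NDUFS8, highest in RM, had 60.5%, 66.8% and 63.5% GC, and NDUFV2 and NDUFS3, lower in RM, had 44.9% and 55.5%. NDUFS1 had 43.9%. The part of base composition in the differences between complexes was not tested.

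**Figure D5:**
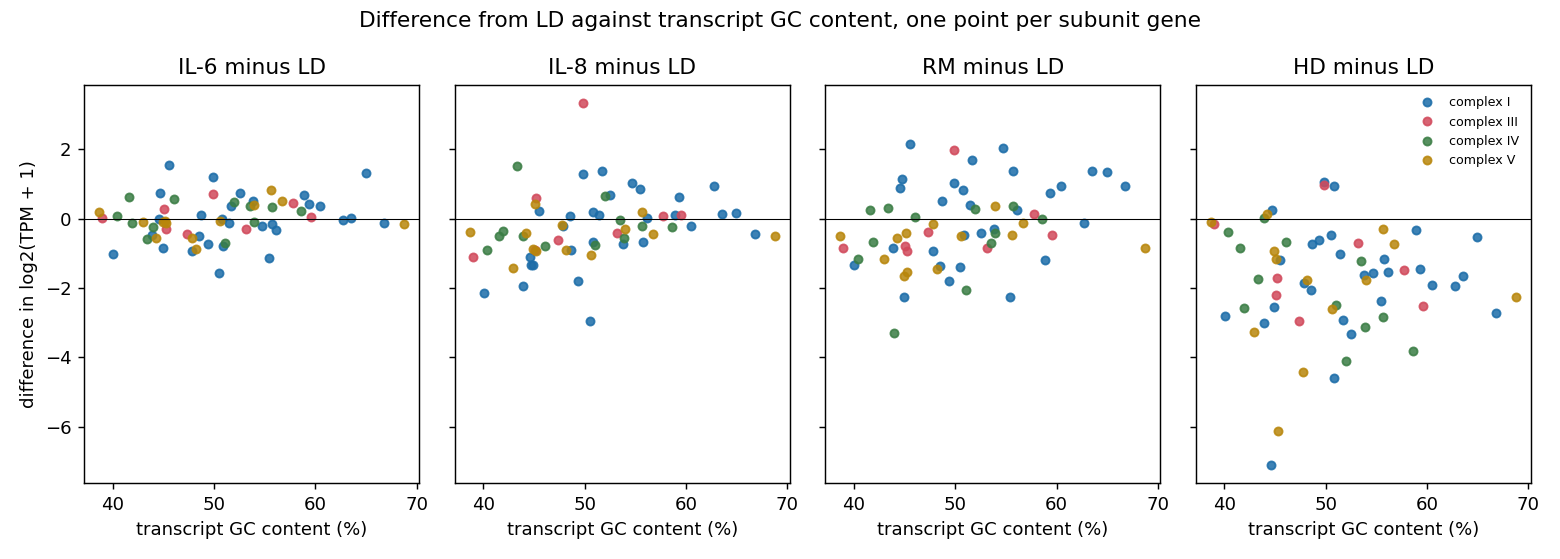
Difference of each library from LD in log2(TPM + 1) against the GC content of the transcripts in percent, for the 62 subunit genes with a mean of at least 10 reads, coloured by complex. Points are genes. The points lean upward to the right in RM (Pearson 0.315), IL-8 (0.293) and less in IL-6 (0.206), while Pearson was -0.03 in HD.

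With and without the promoter words described above, the median difference in HD was below 0 in each group, while in RM the medians for the ETS and YY1 words differed in sign. The 9 genes with both the NRF1 word and a mean of at least 10 reads had a median level of 214 TPM in LD, against 109 TPM for the 42 as well counted with a matched promoter and no such word, and in HD 59.5 and 44.5 TPM. Their median differences from LD were -0.13 and -0.22 log2 units in RM and -1.02 and -1.73 in HD. For the ETS word the median levels in LD were 263 TPM for 16 genes with it and 97.8 TPM for 35 without, and the differences were -0.42 and 0.24 log2 units in RM and -2.01 and -1.57 in HD. For the YY1 word, in 6 genes and not in 45, they were 0.22 and -0.14 in RM and -1.53 and -1.64 in HD. With 6 to 16 genes in a group these medians are a description only.

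Other genes of the pathway were taken from lists by function. Of the 4 genes of complex II, which feeds electrons from succinate, SDHA had 92.4 TPM in LD, 124 with IL-6, 95.7 with IL-8, 87.6 under RM and 42.1 in HD, and SDHB had 53.7, 75.9, 74.1, 18.3 and 22.9 TPM. SDHC had 10.4 to 13.7 TPM and SDHD 10.9 to 20.2 TPM. In HD 2 of the 4 were lower by at least 1 log2 unit, against 20.3% of all genes and 38.8% of those with a mean of at least 10 reads. In RM 1 was lower, against 22.5% and 31.3%, and none was higher in any library. The summed share of complex II was 2.29-fold lower in HD (1.62 to 3.34).

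The electron carriers went opposite ways in HD. CYC1, the cytochrome c1 of complex III, whose symbol the rule does not take in, had 505 TPM in LD, 423 with IL-6, 705 with IL-8, 352 under RM and 25.9 in HD, on 582, 327, 588, 388 and 8 reads. CYCS, the cytochrome c that carries electrons between complexes III and IV, had 6.71, 6.26, 4.93, 4.11 and 67.9 TPM, on 38, 24, 21, 23 and 78 reads. NDUFAB1, the acyl carrier protein of complex I, had 21, 23, 10, 18 and 0 reads, and the small ATP synthase genes USMG5 and C14orf2 had 50, 29, 13, 16 and 2 reads and 105, 82, 183, 65 and 38 reads. ATPIF1, the inhibitor of ATP synthase, had 114 TPM in LD, 164 with IL-6, 33.3 with IL-8, 83.7 under RM and 124 in HD, and was low with IL-8.

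Assembly factors, which build the complexes without staying in them, had a median above their level in LD at high density. Of 38 compared, 14 were higher and 7 lower in HD, against 60.1% and 20.3% of all genes and 33.1% and 38.8% of those with a mean of at least 10 reads. Their median difference was 0.44 log2 units, against 1.85 for all genes, -0.32 for those with that mean and -1.54 for the subunit genes. Their place relative to all genes thus depended on the set used. In RM 4 were higher and 11 lower, against 7.11% and 22.5% of all genes, with a median of -0.42. With IL-8 the counts were 5 and 11, against 9.40% and 18.0%, with a median of -0.30, and with IL-6 they were 6 and 1, against 12.2% and 8.42%, with a median of 0.05. ECSIT, of complex I assembly, had 87.9 TPM in LD, 168 with IL-6, 332 with IL-8, 395 under RM and 75.1 in HD. TIMMDC1, also of complex I assembly, had 256, 247, 136, 113 and 40.6 TPM. TACO1, which is needed for translation of a mitochondrially encoded subunit of complex IV, had 52.9, 45.3, 41.9, 81.2 and 45.5 TPM. Many of these genes were low, and UQCC and LYRM7, of complex III assembly, had 19, 33, 14, 11 and 86 reads and 51, 31, 33, 15 and 132 reads, with the most in the shallowest library.

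Of 12 regulators of nuclear genes of this pathway, 5 were higher and 5 lower in HD. This compares with 60.1% and 20.3% of all genes and 33.1% and 38.8% of those with a mean of at least 10 reads. None was higher by at least 1 log2 unit in IL-6, IL-8 or RM, against 12.2%, 9.40% and 7.11% of all genes, and 4, 5 and 3 were lower, against 8.42%, 18.0% and 22.5%. YY1 had 1143 TPM in LD, 555 with IL-6, 1035 with IL-8, 792 under RM and 2307 in HD. ESRRA, a nuclear receptor that acts with PGC-1 coactivators, had 132, 55.1, 93.4, 99.5 and 11.4 TPM, and TFAM, the packaging factor of mitochondrial DNA, had 46.0, 33.7, 52.8, 53.7 and 7.80 TPM. ESRRA and TFAM were thus lowest in HD and YY1 highest. The gene of NRF1 itself, named because its word was searched, had 18 reads in LD, 2 with IL-6, 2 with IL-8, 8 under RM and 4 in HD. Its share was 6.02-fold lower with IL-6 than in LD (1.44 to 53.5) and 6.13-fold lower with IL-8 (1.47 to 54.5), while the intervals for RM and HD included equal shares.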

How the data were processed

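RNA from 5 cultures, 1 library each, was primed with oligo-dT, amplified as a cDNA pool with phi29 polymerase, prepared with Nextera XT and sequenced as 50-bp single-end reads. The authors aligned reads with Bowtie2 2.3.1 and quantified genes with RSEM 1.2.25 on hg19, per the submitters' processing notes. The annotation and settings are not given in the sources used here. The deposited read counts are whole numbers per gene without normalization, and may be rounded RSEM estimates. The deposited TPM values are corrected for length and total by the authors, and summed to 934821 to 978521 per library. A cell-free collagen control is not analysed here.

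TPM was rescaled to 1000000 without RNA5-8S5, and log2(TPM + 1) was compared between libraries for genes that reached 1 TPM somewhere. With 1 library per condition neither edgeR nor DESeq2 can be fitted. They served for scaling factors only (edgeR 4.0.16, DESeq2 1.42.0). A ratio of read shares has an exact conditional binomial interval and a share a Wilson interval, at 95%. Differences of at least 1 log2 unit were counted. The calculation was tested on simulated counts. Python 3.11.15, pandas 2.3.3 and scipy 1.17.1 were used.

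The members and lists were chosen with earlier results of these data known. Genes were named by rule: the 3 highest mean levels of each complex, isoform families, core subunits, features that encode no subunit, complex II, the carriers and the inhibitor, the 2 largest increases and decreases of each comparison among genes with at least 20 reads in the 2 libraries, and the examples of highest mean level from other lists. Sequences are from RefSeq on GRCh38.p14, not the build of the files. GC content and the promoter words were added after the levels had been seen. Alternatives are given in the closing section.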

Additional observations from a re-analysis of the deposited data

How the results depend on the processing

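No paired analysis was possible because each condition has 1 library, and no library could be left out for the same reason. The counts of subunit genes below are those at 1 log2 unit or more from LD. No median or count moved beyond its limit with a pseudocount of 0.1 TPM, without a filter, with RNA5-8S5 kept in the scaling, or with every feature that the symbols take in. With median-ratio size factors the median with IL-8 turned from -0.40 to 0.03 (11 higher, 8 lower, against 13.3% and 14.4% of all genes). That in RM went to 0.29 (21 higher, 8 lower, against 14.5% and 15.3%), and RM stood above LD, IL-6 and IL-8 for 10 genes and below them for 1. With TMM factors the median was 0.12 in RM (15 higher, 8 lower, against 12.7% and 17.4% of all genes) and -2.45 in HD. With them 9 were lower with IL-8, against 16.0%, and RM stood above for 10 and below for 1. With quantile normalization the median in HD was -2.19, and RM stood below for 1. With it 9 were lower with IL-8 and 9 in RM, against 13.353% and 13.973% of all genes. With CPM the median in HD was -1.92, and RM stood above for 5 and below for 3. With a pseudocount of 5 TPM, or a mean of at least 10 reads, 3 were lower with IL-6, against 3.00% and 8.42% of all genes in turn. With that mean 1 was higher in HD, against 33.1%, and with 1 TPM in all libraries 3 were, against 29.1%. With reads drawn down to the total of HD, 6 were higher and 10 lower with IL-6, against 17.689% and 12.035% of all genes. With that draw RM stood below for 8. At 2 log2 units 0 and 0 were higher and lower with IL-6, against 2.829% and 1.999% of all genes. With IL-8 they were 1 and 3, against 2.693% and 4.401%, and under RM 2 and 4, against 2.379% and 6.353%. In HD they were 4 and 26, against 47.769% and 10.970%. At that threshold RM stood above for 0 and below for 1. As a share of all reads the subunit genes took 0.196% in LD, 0.181% with IL-6, 0.170% with IL-8, 0.196% under RM and 0.087% in HD, and as a share of summed TPM 1.730%, 1.803%, 1.691%, 1.841% and 0.468%. The higher share in RM than in LD thus shows outside RNA5-8S5 and in TPM, and that in all reads was equal to 3 digits. The causes were not tested. Depth limits HD most, where 3 reads make 6.67 CPM.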
